A study of Mus musculus with 8 samples.

Results

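The GABA-A receptor subunit genes Gabra2, Gabra4, Gabra5, Gabra6, Gabrb1, Gabrb2 and Gabrd were examined for open chromatin in granule neuron progenitors (GNPs) of the mouse cerebellum. The 7 genes were chosen by name, out of 21938 protein-coding genes, and every ATAC-seq peak that touched the gene body or the 10 kb on either side of it was taken as a member. These windows held 72 of 152984 peaks in wild-type (WT) cells, 48 of 106974 in heterozygous (het) cells and 80 of 174407 in mutant cells. ATAC-seq marks open DNA by where the Tn5 transposase inserts sequencing adapters. GNPs were isolated from mice at postnatal day 7, and 8 libraries were made: 3 WT, 3 mutant and 2 het for Chd7, which encodes a chromatin remodelling enzyme. Per the study's methods, WT cells carried 2 floxed copies of Chd7 without Cre (Chd7 f/f), het cells were Atoh1-Cre::Chd7 f/+ and mutant cells were Atoh1-Cre::Chd7 f/f. The Atoh1 promoter drives the Cre recombinase in the granule lineage, and the study considers recombination probably less efficient in the posterior lobe. The WT and mutant replicates were technical. The 3 peak lists were each called on the pooled libraries of a genotype, so every value below is 1 value per genotype, no replicate error exists, and no test between genotypes was possible. Intervals cover counting error only.

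GABA-A receptors are chloride channels opened by the transmitter GABA, assembled from subunits of several families. An alpha and a beta subunit together form the site that binds GABA, and the further subunits set where the receptor sits in the membrane and which drugs act on it. In the cerebellum, Golgi cells release GABA onto granule neurons. Mature granule neurons express Gabra6, whose product is found almost only in these cells and their relatives in the cochlear nucleus, and Gabrd, whose product joins the alpha6 subunit in receptors outside synapses that carry a steady inhibitory current. Gabra2, Gabra4, Gabra5, Gabrb1 and Gabrb2 encode subunits that are used in many types of neuron.

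Depth was similar for WT and mutant, with 50394313 and 51030229 tags after filtering, and lower for het, with 30923002. Tags were 107 bp long in WT and het and 76 bp in mutant, and genotype cannot be told apart from this difference. Het tags were also shifted and extended to 200 bp, against 90 bp and 88 bp without a shift in WT and mutant, so het peak heights are not set against the others. Start-site peaks, those with a summit within 1 kb of an annotated start, were present at 9, 9 and 10 of 10 progenitor markers in WT, het and mutant, and at all 9 granule neuron markers in each list. The granule neuron markers included Gabra6 and Gabrd, which are also among the subunit genes examined here. Among the markers of other cell types, start-site peaks were present in WT at 5 of 6 for Purkinje cells, 4 of 6 for inhibitory interneurons, 4 of 5 for Bergmann glia and astrocytes, 4 of 6 for the oligodendrocyte lineage, 2 of 4 for microglia and 2 of 3 for endothelial cells. Listed markers with such a peak in all 3 lists included Calb1, Gad1, Slc1a3, Olig2, P2ry12 and Cldn5, and those with none in any list included Pcp2, Slc32a1, Gfap, Sox10, Cx3cr1 and Pecam1 (both chosen as examples after their values were seen). Peak lists do not show whether Chd7 itself was deleted.

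The sequences below were read from the mouse genome GRCm38.p6 and its RefSeq promoter table, in which 6 of the 7 genes were matched (all but Gabrd). They show the 250 bases upstream of the weakest and of the strongest start with an entry in that table, the strongest peak of 2 genes, the peak that was highest in mutant relative to WT, and the strongest WT peak with no mutant peak nearby. Capitals mark the letters TTGGC (the core site of nuclear factor I, NFI, a family known to act on Gabra6 in maturing granule neurons), CAGCTG (the E-box form bound by Atoh1), CATCTG (the form bound by Neurod1), GGGCGG (bound by Sp1) and TATAAA, each on either strand.
Gabra6 upstream (chr11:42321073-42321322, minus strand): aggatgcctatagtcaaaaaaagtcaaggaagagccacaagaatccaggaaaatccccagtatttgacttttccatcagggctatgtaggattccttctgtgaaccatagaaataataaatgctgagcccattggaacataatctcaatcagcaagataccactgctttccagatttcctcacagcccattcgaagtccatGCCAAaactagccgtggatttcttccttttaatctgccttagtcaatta
Gabra2 upstream (chr5:71095850-71096099, minus strand): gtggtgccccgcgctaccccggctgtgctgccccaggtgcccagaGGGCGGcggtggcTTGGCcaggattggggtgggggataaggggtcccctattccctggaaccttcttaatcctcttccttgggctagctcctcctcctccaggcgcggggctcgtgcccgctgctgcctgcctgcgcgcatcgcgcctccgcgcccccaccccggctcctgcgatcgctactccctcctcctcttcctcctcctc
Gabra6 exon peak (chr11:42314881-42315180, plus strand): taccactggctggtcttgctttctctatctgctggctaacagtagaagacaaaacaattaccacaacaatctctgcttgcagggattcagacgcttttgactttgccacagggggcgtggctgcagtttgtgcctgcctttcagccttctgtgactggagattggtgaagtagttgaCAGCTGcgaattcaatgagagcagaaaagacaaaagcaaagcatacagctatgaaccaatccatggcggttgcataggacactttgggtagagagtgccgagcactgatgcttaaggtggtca
Gabra2 intron peak (chr5:70995633-70995911, plus strand): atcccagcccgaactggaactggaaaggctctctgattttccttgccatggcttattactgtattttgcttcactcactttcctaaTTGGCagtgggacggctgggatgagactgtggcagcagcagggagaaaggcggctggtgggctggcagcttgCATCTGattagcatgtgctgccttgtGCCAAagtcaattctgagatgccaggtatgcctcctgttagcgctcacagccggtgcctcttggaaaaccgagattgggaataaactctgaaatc
Gabra5 intron peak (chr7:57491837-57492096, plus strand): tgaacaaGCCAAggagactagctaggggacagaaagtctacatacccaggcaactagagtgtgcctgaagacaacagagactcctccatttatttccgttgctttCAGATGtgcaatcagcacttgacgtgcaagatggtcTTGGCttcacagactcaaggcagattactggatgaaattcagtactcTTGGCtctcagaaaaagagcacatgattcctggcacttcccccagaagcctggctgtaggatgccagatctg
Gabra2 WT peak without a mutant peak (chr5:70991006-70991176, plus strand): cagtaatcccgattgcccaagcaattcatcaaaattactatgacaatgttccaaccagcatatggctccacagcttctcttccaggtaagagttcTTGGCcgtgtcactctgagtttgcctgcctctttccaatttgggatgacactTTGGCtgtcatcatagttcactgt

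All of these motifs but TATAAA were found in a smaller share of the subunit peaks than of the whole WT list, though only for GGGCGG did the whole-list share lie outside the members' counting interval. Within 300 bases centred on each summit, TTGGC was found in 36 of 72 WT peaks (50%, Wilson 95% interval 38.8 to 61.3) and in 58.1% of all WT peaks. CAGCTG was found in 16 of 72 (22.2%, 14.2 to 33.1) against 28.6%, and CATCTG in 23 of 72 (31.9%, 22.3 to 43.4) against 34.8%. GGGCGG was found in 4 of 72 (5.56%, 2.18 to 13.4) against 13.9%, and TATAAA in 11 of 72 (15.3%, 8.75 to 25.3) against 10.7%. The paired NFI site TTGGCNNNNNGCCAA, which contains the core site, was in 0 of 72 and in 0.114% of all WT peaks. The subunit peaks were also poorer in G and C, with a median GC content of 45.3% against 50%. Among promoters (300 bases, from 250 before to 50 after a start), Gabra6 had 42.0% GC and Gabra2 70.0%, with 14.9% and 90.9% of 32851 promoters at or below these values. The Gabra6 promoter had an observed over expected CpG ratio of 0.155 and that of Gabra2 0.721, with a median of 0.384 over all promoters. In the printed letters, Gabra6 had a single TTGGC on the other strand and Gabra2 a TTGGC and a GGGCGG. In the promoter table, TTGGC was found in 46.7% of promoters and GGGCGG in 35.7%.

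All 7 genes had a start-site peak in all 3 lists, where 67.9% of protein-coding genes had a WT one, 65.8% a het one and 68.8% a mutant one. The genes differed in how high that peak was. The order from high to low was Gabra2, the peak shared by Gabra4 and Gabrb1, Gabrb2, Gabra5, Gabra6 and Gabrd in WT. Height is given as pileup, the number of extended tags over the summit, and as CPM, the pileup per 1000000 tags of the list. At Gabra2 the pileup was 67 in WT and 64 in mutant (1.33 and 1.25 CPM), with 72.3% of the start-site peaks of all genes at or below it in WT. Gabra4 and Gabrb1 start head to head on chromosome 5, and a single peak covered both starts, with 65 tags in WT and 66 in mutant (1.29 CPM in each). These 2 peaks lay above the median start-site peak, which was 1.03 CPM in WT and 1.06 in mutant.

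The strongest start-site peaks of the other 4 genes lay below that median. Gabrb2 had 38 tags in WT and 42 in mutant (0.754 and 0.823 CPM), and Gabra5 had 32 and 35 (0.635 and 0.686 CPM). Gabra6 had 18 tags in WT and 13 in mutant (0.357 and 0.255 CPM), with 10% of all start-site peaks at or below it in WT and 5% in mutant. Gabrd had 15 tags in WT and 16 in mutant (0.298 and 0.314 CPM), with 7.22% and 7.80% at or below. The peaks of Gabra6 and Gabrd, the pair that marks mature granule neurons, were thus the lowest of the 7 in each of these lists, but the counting intervals of neighbours in the order overlapped, for example 10.7 to 28.4 tags at Gabra6 and 21.9 to 45.2 at Gabra5 in WT. In het the pair was also lowest, with 13 tags at Gabra6 and 22 at Gabrd, and Gabra6 lay below Gabrd there, with 1.93% and 8.62% of start-site peaks at or below. In bulk chromatin, fewer cells with an open site and a less open site in every cell cannot be told apart.

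**Figure D1:**
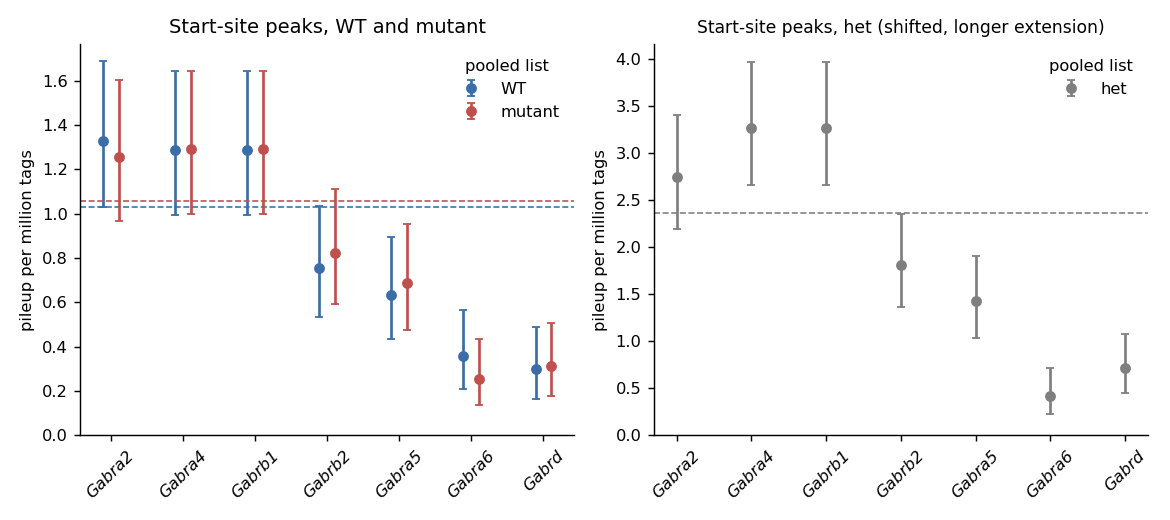
Height of the strongest start-site peak of each subunit gene, as pileup in CPM (vertical axis), for the WT and mutant lists (left) and the het list on its own scale (right); points are pooled lists, bars are 95% Poisson counting intervals and dashed lines the median over all genes with a start-site peak. Gabra2 and the peak shared by Gabra4 and Gabrb1 lie above the median and Gabra6 and Gabrd lie lowest, from 0.255 to 0.357 CPM in WT and mutant.

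Gabra6 (ENSMUSG00000020428.13, chr11:42306437-42321072, minus strand) had 4 WT, 2 het and 3 mutant peaks. Its strongest peak was not at the start but at chr11:42314841-42315295, with a summit in coding sequence of exon 8 of 9 in transcript Gabra6-201. This peak had 40 tags in WT and 31 in mutant, a ratio per tag of 0.765 (exact 95% counting interval 0.463 to 1.25). Its -log10 q, the strength of a peak over local background, ranked at or above 92.2% of the WT list, 78.9% of the het list and 84.6% of the mutant list. The start-site peak at chr11:42321054-42321249 ranked at 66.6% in WT, at 22.6% in het and at 48.3% in mutant, while the mutant over WT ratio was 0.713 (0.321 to 1.54). A peak 5527 bp upstream of the start had 15 tags in WT and 14 in mutant (ratio 0.922, 0.412 to 2.05) and no het peak. A weak WT peak in intron 8 (8 tags, -log10 q 2.26) had no mutant or het peak. All 3 shared Gabra6 peaks were lower in mutant, where 42.4% of all shared WT peaks were. Their median log2 ratio was -0.39, but each interval included a ratio of 1. Among all shared WT peaks of -log10 q of 5 or more, 7.38% had a log2 ratio at or below that of the Gabra6 start (-0.49) and 11.2% at or below that of the exon peak (-0.39).

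Gabrd (ENSMUSG00000029054.8, chr4:155384980-155398112, minus strand) had open chromatin only at its start within its window. The WT list held 1 peak, the het list 1 and the mutant list 2, all at the start site and all overlapping the WT peak at chr4:155397648-155398313. Its mutant over WT ratio was 1.05 (0.488 to 2.29), and its rank was 46.5% in WT, 49.5% in het, and it reached 57.5% in mutant. The 2 granule neuron subunits therefore had ratios on either side of 1, and the intervals overlapped.

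Gabra2 (ENSMUSG00000000560.9, chr5:70957597-71095849, minus strand) carried 11 WT, 7 het and 11 mutant peaks. Its strongest peak lay in intron 6 of Gabra2-201, 100087 bp from the start, at chr5:70995633-70996276. That peak had 85 tags in WT and 87 in mutant (ratio 1.01, 0.741 to 1.38) and ranked at 99.7%, 97.9% and 99.8% of the WT, het and mutant lists. It was higher than the peak at the gene's own start. The next strongest peak beyond the start, in intron 5 at chr5:71006493-71006664, had 24 tags in WT and 20 in mutant, and its rank was 77.4% in WT, 36.5% in het and 71.7% in the mutant list. Of 8 shared Gabra2 peaks, 6 were lower in mutant, where 42.4% of all shared WT peaks were. Their median log2 ratio was -0.09, and each counting interval included a ratio of 1. The largest difference downward among all members was in intron 2 of Gabra2, at chr5:71017845-71018084, where 13 WT tags faced 8 mutant tags (ratio 0.608, 0.218 to 1.58).

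Gabra4 (ENSMUSG00000029211.11, chr5:71569749-71658308, minus strand) and Gabrb1 (ENSMUSG00000029212.11, chr5:71658113-72149037, plus strand) overlap at their 5′ ends, so the peak at chr5:71657434-71658539 and a peak at chr5:71665688-71665903 counted for both. The latter lies in the Gabrb1 body, 7467 bp from the nearest start, and had 45 tags in WT and 42 in mutant (ratio 0.922, 0.591 to 1.44). Apart from these, Gabra4 had few peaks. Its final exon held a peak at chr5:71571808-71572112 with 12 tags in WT and 20 in mutant (ratio 1.65, 0.766 to 3.69), ranked at 42.3% in WT, 60.7% in het and 71.4% in the mutant list. Gabra4 had 4 WT, 4 het and 7 mutant peaks in all.

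Gabrb1 is 491 kb long and had the most peaks, with 28 in WT, 19 in het and 32 in mutant cells. Per 100 kb of its window this was 5.48 in WT, and 39.9% of protein-coding genes had as many or fewer. A strong peak in intron 4 of Gabrb1-201, at chr5:71976234-71977036, had 56 tags in WT and 63 in mutant (ratio 1.11, 0.763 to 1.62). It ranked at 94.9% of the WT list, 95.7% of the het list and 96.9% of the mutant list, close to the start-site peak shared with Gabra4. At the downstream start of Gabrb1-201 a peak had 25 tags in WT and 26 in mutant. A higher WT peak at chr5:71700554-71701471, whose summit lay 953 bp from this start, had 58 tags in WT and faced a mutant peak of 64 (1.15 and 1.25 CPM, ratio 1.09, 0.752 to 1.58), the summit of which lay 1233 bp away.

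Gabrb2 (ENSMUSG00000007653.12, chr11:42419757-42629028, plus strand), which lies 98.7 kb from Gabra6 on the same chromosome, had 19 WT, 11 het and 20 mutant peaks. Its 3 strongest WT peaks by -log10 q were intronic, though its start-site peak had a higher WT pileup than any of them (38 tags, -log10 q 14.5). The first, in intron 9 at chr11:42606256-42606605, had 30 tags in WT and 25 in mutant (ratio 0.823, 0.464 to 1.45). The second, in intron 4 at chr11:42468270-42468661, had 27 and 28 (ratio 1.02, 0.582 to 1.81). The third, in intron 9 at chr11:42618303-42618510, had 25 and 19 (ratio 0.751, 0.391 to 1.42).

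Gabra5 (ENSMUSG00000055078.7, chr7:57407672-57510059, minus strand) had 7 WT, 6 het and 7 mutant peaks. Its strongest peak, in intron 9 at chr7:57411172-57411736, had 36 tags in WT and 35 in mutant (ratio 0.960, 0.585 to 1.57). In intron 5, the peak at chr7:57474186-57474438 had 28 and 30 tags (ratio 1.06, 0.611 to 1.84) and the peak at chr7:57486133-57486388 had 26 and 27 (ratio 1.03, 0.576 to 1.83). The first of these ranked at 83.3% in WT, 37.2% in het and 84.7% in mutant.

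**Figure D2:**
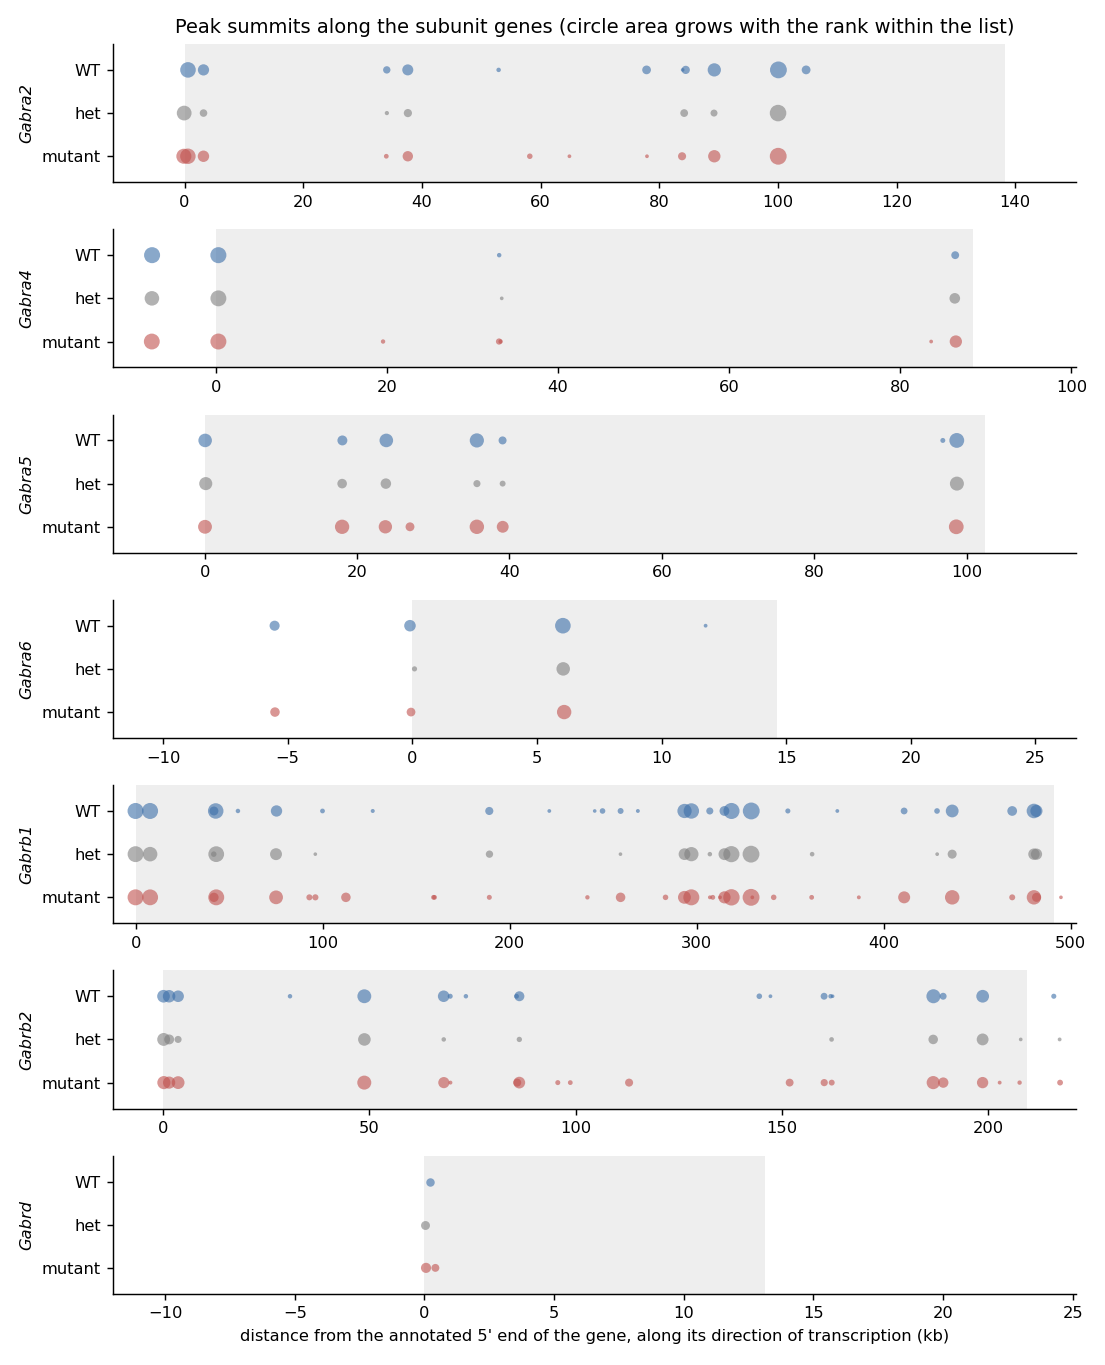
Summits of all peaks in the window of each subunit gene for the WT, het and mutant lists, by distance from the annotated 5′ end of the gene along its direction of transcription (horizontal axis, kb); the gene body is shaded and larger circles rank higher in -log10 q within their list. The strongest intronic peak of Gabra2 recurs in all 3 lists, while many of the small circles appear in 1 list only, and Gabrd has peaks at its start alone.

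Most subunit peaks lay in introns (57 of 72 in WT, 79.2%), against 40.2% of the whole WT list. The windows were drawn around gene bodies, whereas 40.95% of the whole WT list was intergenic. Of 72 WT peaks, 22 had no overlapping mutant peak (30.6%, Wilson 95% interval 21.1 to 42.0), against 22.8% of the whole WT list. Of 80 mutant peaks, 28 had no overlapping WT peak (35.0%, 25.5 to 45.9), against 30.7% of the whole mutant list. Both backgrounds lay inside the members' intervals. By gene, the WT peaks without a mutant peak numbered 10 at Gabrb1, 7 at Gabrb2, 3 at Gabra2 and 1 each at Gabra5 and Gabra6, with 0 at Gabra4 and Gabrd. The mutant peaks without a WT peak numbered 14 at Gabrb1, 8 at Gabrb2, 3 at Gabra4, 2 at Gabra2 and 1 at Gabra5, with 0 at Gabra6 and Gabrd.

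Nearly all of these unshared peaks were weak. Among WT peaks of -log10 q below 5, 20 of 29 had no mutant peak (69.0%, 50.8 to 82.7), against 50.7% of such peaks in the whole list. Between 5 and 10 it was 2 of 15 (13.3%, 3.74 to 37.9) against 13.5%, and at 10 or more 0 of 28, with an upper bound of 12.1% and a whole-list share of 0.456%. In the mutant list the share was 24 of 31 below 5 (77.4%, 60.2 to 88.6) against 63.7%, 4 of 16 between 5 and 10 (25%, 10.2 to 49.5) against 25.1%, and 0 of 33 at 10 or more, with an upper bound of 10.4%, against 1.21%. For the weak peaks, the lower bound of the WT interval (50.8%) lay just above the whole-list share, as it did not in the mutant list.

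**Figure D3:**
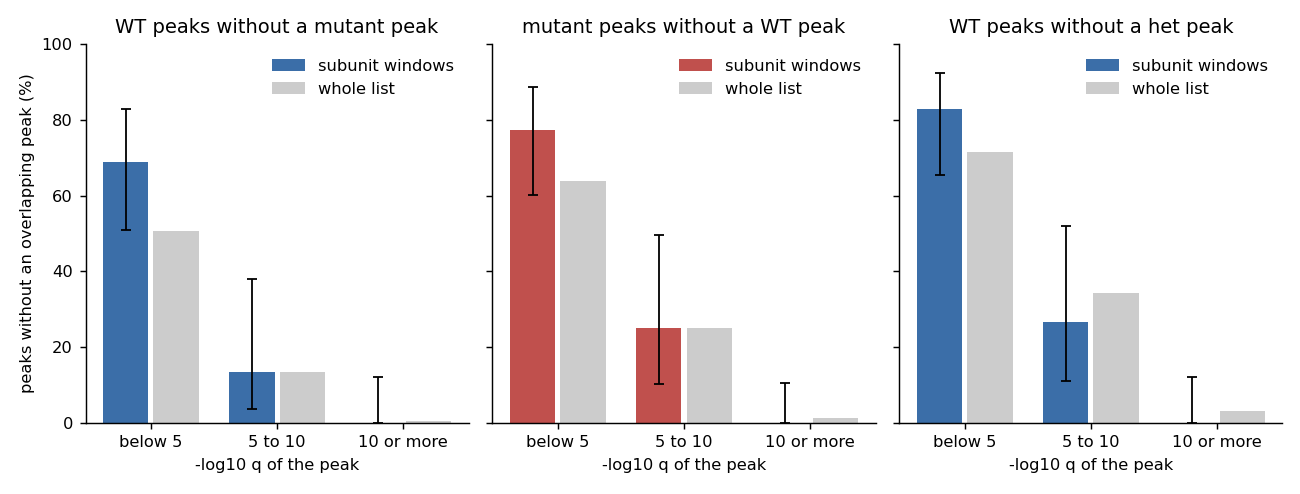
Share of peaks (vertical axis, %) without an overlapping peak in the other list, by -log10 q of the peak (horizontal axis), for WT against mutant, mutant against WT and WT against het; coloured bars are peaks of the subunit windows with Wilson 95% intervals and grey bars the whole list. The share falls from 69.0% to 0% with strength in WT against mutant, and from 77.4% to 0% in mutant against WT.

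Of 43 WT peaks of -log10 q of 5 or more, 1 had no mutant peak within 300 bp, against 4.96% of the whole list. This was the Gabra2 peak at chr5:70991006-70991176, in intron 6, whose sequence is printed above. It had 20 tags, a -log10 q of 6.34 and no het peak either, and it lay in the same intron as the strongest Gabra2 peak. Of 49 mutant peaks of -log10 q of 5 or more, 4 had no WT peak within 300 bp, against 9.84% of the whole list. They were a Gabra5 peak at chr7:57483072-57483180 with 15 tags, a Gabrb1 peak at chr5:71770426-71770576 with 14, and Gabrb2 peaks at chr11:42532648-42532764 with 13 and at chr11:42571563-42571686 with 12. None of the 4 had a het peak within 300 bp, and all were intronic.

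The 50 WT peaks that a mutant peak overlapped differed little in height at the median. Their median log2 ratio of mutant over WT was 0.02, against 0.08 over all 118098 shared WT peaks, and 23 of 50 were lower in mutant (46.0%, against 42.4% of all). Past 1.5-fold, 1 peak was lower (2%, against 3.61% of all) and 4 were higher (8%, against 8.37%). Among the 41 of -log10 q of 5 or more, 1 was lower (against 4.64%) and 3 were higher (against 4.72%), with a median of -0.02. By gene the median log2 ratio was -0.39 at Gabra6, -0.09 at Gabra2, 0.02 at Gabrb1, 0.07 at Gabrb2, 0.08 at Gabrd, 0.10 at Gabra5 and 0.14 at Gabra4.

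Single peaks spread around these medians. The largest difference upward among peaks of -log10 q of 5 or more was in intron 2 of Gabra5, at chr7:57491737-57492096, with 15 tags in WT and 30 in mutant. Its ratio was 1.98 (1.03 to 3.95), and it was the 1 of 50 shared peaks whose counting interval excluded 1. Among 50 intervals, 1 or more can exclude 1 by counting error alone, and the interval was not widened for this choice. The share of all shared WT peaks with such an interval was not computed. This Gabra5 peak ranked at 56.2% in WT, 53.9% in het and 84.1% in the mutant list. Of all shared WT peaks of -log10 q of 5 or more, 99.5% had a ratio at or below that of this peak. A second Gabra5 peak, in intron 5 at chr7:57470846-57471021, had 13 and 21 tags (ratio 1.60, 0.762 to 3.47). The other larger ratios were at the Gabra4 exon peak described above and at Gabrb1, at chr5:71732994-71733736 in intron 3 with 20 and 30 tags (ratio 1.48, 0.814 to 2.75) and at chr5:72094712-72094850 in intron 5 with 23 and 31 (ratio 1.33, 0.751 to 2.39).

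In the other direction, the 5 lowest ratios after strength was required came from 4 genes. Beside the Gabra2 intron 2 peak, the Gabra6 start and the Gabrb2 intron 9 peak given above, they were the Gabrb1 peaks at chr5:72139748-72139972 in the untranslated part of exon 9, with 25 WT and 17 mutant tags (ratio 0.672, 0.340 to 1.29), and at chr5:72126810-72126920 in intron 8, with 16 and 12 (ratio 0.741, 0.320 to 1.67). Each of these intervals included 1. At these depths, a peak of 18 WT tags such as the Gabra6 start would show a ratio interval about as wide as 0.321 to 1.54, so a moderate difference there was not detectable.

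**Figure D4:**
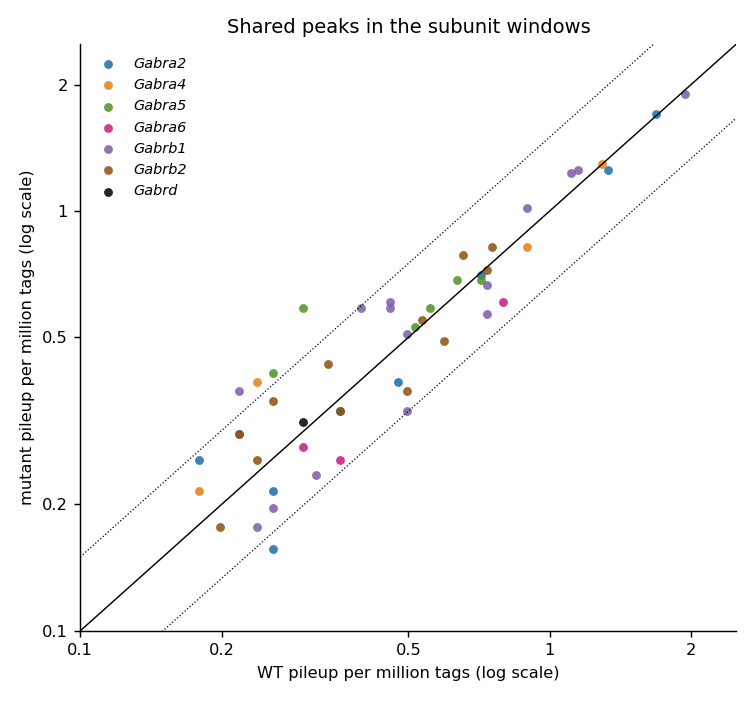
Pileup in CPM in WT (horizontal axis) and mutant (vertical axis), both on log scales, for the 50 shared peaks, coloured by gene; peaks in both the Gabra4 and Gabrb1 windows carry the Gabra4 colour, some points coincide, the solid line marks equal height and the dotted lines a 1.5-fold difference. The Gabra5 intron 2 peak lies highest above the upper dotted line, at 0.298 in WT and 0.588 in mutant, 1 Gabra2 peak lies below the lower line, and the 3 Gabra6 peaks lie below the solid line.

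In het, fewer peaks were called at this lower depth. Of 72 WT peaks, 28 had no het peak (38.9%, 28.5 to 50.4), against 36.9% of the whole WT list, and of 48 het peaks, 5 had no WT peak (10.4%, 4.53 to 22.2), against 13.3% of the whole het list. At -log10 q of 10 or more, 0 of 28 WT peaks lacked a het peak, with an upper bound of 12.1%, against 2.999% of the whole list. When peaks within 300 bp were joined across lists, the windows held 93 regions. A peak from all 3 lists was in 42 of them (45.2%, against 45.7% of all 190582 regions). WT and mutant alone shared 7 (7.53%, against 12.75% of all regions), het and mutant alone 4 (4.30%, against 3.03%), and WT and het alone 1 (1.08%, against 1.66%). There were 18 regions with WT peaks alone (19.4%, against 13.3% of all regions), 21 with mutant peaks alone (22.6%, against 20.1%) and 0 with het peaks alone (against 3.52%). Of the 4 Gabra6 regions, 2 were in all 3 lists, 1 in WT and mutant and 1 in WT alone, and the 1 Gabrd region was in all 3 lists.

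Ranks are relative to their own list, and the 3 lists differ in length and calling settings, so a change of rank also carries how many weak peaks each list holds. Over 44 WT peaks with a het peak, 36 ranked lower in het than in WT, with a median change of -10.1 percentile points, where the median over all 96575 such peaks was -6.53 and 76.0% ranked lower. Changes varied within genes. The Gabra6 start changed by -44.0 points, with 2.12% of all such WT peaks at or below it, and the Gabra6 exon peak by -13.3. Larger falls than at that start were seen at 1 peak of Gabrb2 (-50.2) and 1 of Gabra5 (-46.1), and the Gabrd peak changed by 2.98 points. Against mutant, the median change over the 50 shared peaks was 0.51 points, where it was 2.28 over all shared WT peaks. The Gabra6 start ranked lower in het than in mutant. The part of the lower depth and of the shifted, longer tags of the het list in this order was not tested.

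**Figure D5:**
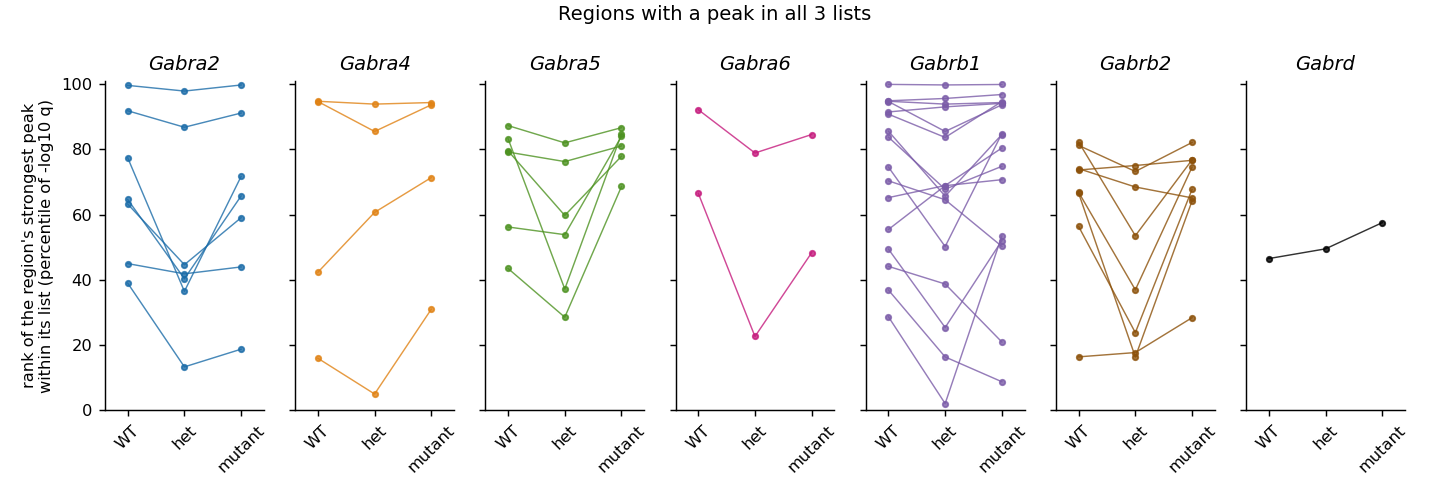
Rank within its own list (vertical axis, percentile of -log10 q) of the strongest peak of each region that had a peak in all 3 lists, by gene, with a line joining the WT, het and mutant values of a region. The top region of Gabra2 and of Gabra4 ranks at 93.9% or higher in each list, and the Gabra6 start goes from 66.6% in WT to 22.6% in het and 48.3% in mutant.

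The other genes of GABA signalling were counted in the same way. Of 29 listed genes, 25 had a start-site peak in WT, where 67.9% of all protein-coding genes had one. The same number of the listed genes had one in het (against 65.8% of all genes) and in mutant (against 68.8%). The listed genes without one in any list were Gabrp, Gabrr1 and Gabrr3, which encode subunits best known from peripheral tissues and the retina, and Slc32a1, the transporter that loads GABA into vesicles of inhibitory neurons. The 12 other GABA-A and rho subunits held 64 WT and 84 mutant peaks. Of these, 14 WT peaks had no mutant peak (21.9%), against 22.8% of the whole list, and 35 mutant peaks had no WT peak (41.7%), against 30.7%. This last share lay further above the whole list than that of the members (35.0%), and no interval was computed for it. Past 1.5-fold, 2 of 50 shared peaks were lower and 6 higher, where 3.61% of all shared WT peaks were lower and 8.37% higher. Over all 29 genes, 37 of 201 WT peaks had no mutant peak (18.4%) and 72 of 239 mutant peaks had no WT peak (30.1%), with 6 shared peaks lower and 12 higher past 1.5-fold of 164.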

How the data were processed

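The 3 ATAC-seq peak lists, with 1 pooled list per Chd7 genotype, were used as the authors deposited them. Per the file headers, the caller was MACS2 2.1.0.20150731, run without a control at a q-value limit of 0.05. WT and mutant alignments came from a folder named for STAR, and tags were extended to a modelled 90 bp and 88 bp without a shift. Het alignments came from a folder named for bowtie, with tags shifted by -100 bp and then extended to 200 bp. The submitters' processing notes also name Trim Galore 0.4.1, STAR 2.5.0b, Picard 1.139 and the build mm10. The pileup signal that the authors deposited is the number of extended tags at a summit, not scaled to depth. The fold enrichment ratio and the -log10 q were deposited by the authors as the peak caller gave them. These values depend on depth and extension length, so heights of WT and mutant were scaled to 1000000 tags (CPM) and het was used by presence and by rank within its list alone.

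Peaks were assigned to a gene when they touched its body plus 10 kb on each side (GENCODE M21 on GRCm38, coordinates counted from 1). A peak was shared when any peak of the other list touched it by 1 bp or more, and its height was set against the highest overlapping peak. A 1.5-fold difference in CPM was counted, with no test, since each genotype is 1 pooled list. Shares carry Wilson 95% intervals and ratios exact Clopper-Pearson intervals, which cover counting error only, as each genotype is 1 pooled list. Tags come from PCR without molecular identifiers, though the study's methods describe the removal of duplicated reads. The genes, gene lists, motifs and rules were chosen with earlier results of these data known. Named peaks were those at start sites, the 3 strongest WT peaks of each gene (1 of Gabrb1 is not reported here), peaks of -log10 q of 5 or more with no peak of the other genotype within 300 bp, and the 5 largest differences each way among shared peaks of that strength. Introns and exons were numbered in the transcript whose name ends in 201. The overlap and ratio code was tested on simulated peaks, and the coverage of the ratio intervals was measured there without a set target. Python 3.11.15, scipy 1.17.1 and pysam 0.24.0 were used. All pooled columns were used and 0 were left without a group.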

Additional observations from a re-analysis of the deposited data

How the results depend on the processing

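No paired analysis was possible because each genotype was deposited as 1 pooled peak list, and for the same reason no replicate could be left out. Weak peaks set the counts. With -log10 q of 5 or more required, the windows held 43 WT and 49 mutant peaks, and 4.65% of WT peaks had no mutant peak and 8.16% of mutant peaks no WT peak, against 5.78% and 11.2% of the whole lists. With that strength required in both lists, the shares were 13.95% and 20.4% (whole lists 13.7% and 23.96%), and 16.3% of WT peaks had no het peak and 0% of het peaks no WT peak (whole lists 22.5% and 11.9%). With each list limited to its strongest 106974 peaks, the windows held 47 WT and 48 mutant peaks, and the shares without a partner were 17.0% and 14.6%. The larger share was then on the WT side, as it was in the whole lists (19.6% and 18.6%). After the median over all shared peaks was subtracted, 2 shared peaks rather than 1 were lower past 1.5-fold. The median log2 ratio of 0.02 became -0.004 from fold enrichment, -0.05 after that subtraction and -0.02 for peaks of -log10 q of 5 or more, so its sign depends on the setting. A 50% reciprocal overlap, joining within 300 bp and narrower gene windows left every share within its main interval. Depth limits the ratios, since most peaks had few tags.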
